A study of Beta vulgaris with 9 samples.

Results

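The comparison described here was that of sugar beet leaves after 3 days of alkaline treatment with leaves collected before it. Leaves of cultivar KWS0143 were sampled from 3 control libraries at day 0 with no alkaline salt and from 3 short-term libraries at day 3, in which Hoagland solution carried 75 mM of mixed Na2CO3 and NaHCO3. Another 3 libraries at day 7 of the same treatment entered the statistical fit only to share its estimate of the spread. Every plant was of this single cultivar and grew hydroponically, and the control plants were sampled at the start, so that alkali and the 3 days of further growth cannot be told apart. The members were chosen by level alone, as features with a mean over 0.5 FPKM (fragment density on a transcript relative to its length and to the sequencing depth) in control or short-term leaves. They comprised 14109 of 24351 protein-coding genes, 1634 of 8535 long non-coding RNAs (lncRNAs; 1408 intergenic and 226 antisense) and 756 of 1292 transcripts of uncertain coding potential (TUCPs). The labels do not say which plants each library came from, so the tests measure the spread between these libraries.

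Carbonate salts raise the pH around the root and bring sodium into the plant. At high pH, iron, zinc and phosphate become less soluble, and the bicarbonate ion enters the carbon chemistry of the cell. Leaves are known to answer such stress by adjusting photosynthesis, by accumulating compatible solutes such as glycine betaine, which sugar beet makes in quantity from choline in the chloroplast, and by changing the traffic of metals and ions. Light drives electrons through the photosystems to ferredoxin, which reduces not only carbon (through NADPH) but also nitrite and sulfite, so that these pathways share an electron donor.

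The total over all transcripts was 1088388 to 1119080 FPKM per library, of which 39.6% to 41.8% lay in protein-coding genes and 52.5% to 54.7% in TUCPs. The 10 highest transcripts held 31.7% to 35.6%. Mesophyll markers (31 genes of the Rubisco small subunit, antenna, photosystem I and carbonic anhydrase) summed to 50416 to 65793 FPKM in control and 32053 to 43965 FPKM in short-term leaves, and 1 of them was at 0 in all 6 libraries. Guard cell markers (3 genes) summed to 0.785 to 1.65 FPKM, meristem markers (4 genes) to 8.45 to 16.6 FPKM, and markers of leaf senescence (4 genes) to 123 to 148 FPKM in control and 118 to 147 FPKM in short-term leaves. The senescence sum joined opposite changes, with STAY-GREEN 1 entirely above and STAY-GREEN LIKE entirely below the controls. In such bulk samples, fewer cells of a type and less RNA per cell cannot be told apart.

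Control replicate 1 stood apart from its group. In a principal component analysis of gene levels the leading axis (61.7% of the variance) held the controls at -21.2, 32.9 and 54.8 and the short-term libraries at -4.96, -29.6 and -31.9. Across genes, control replicate 1 correlated at 0.960 to 0.971 with the short-term libraries and at 0.946 and 0.927 with the other controls. On the second axis it lay at -34.6, away from both groups. By the median absolute log2 difference over genes it was 0.201 and 0.235 from the other controls and 0.189 to 0.234 from the short-term libraries. By that measure it was about as near to either group. It is therefore treated below as a control, as labelled, and the number of genes past the threshold is also given without it. Leaving it out shows how much a value depends on it, but whether its label is right was not tested. It was singled out from these same data because it lay near the short-term libraries on the leading axis and by correlation. Counts and adjusted p without it are therefore selected to favour a difference and are not separate evidence. Every control mean and overlap below includes control replicate 1 unless stated.

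**Figure D1:**
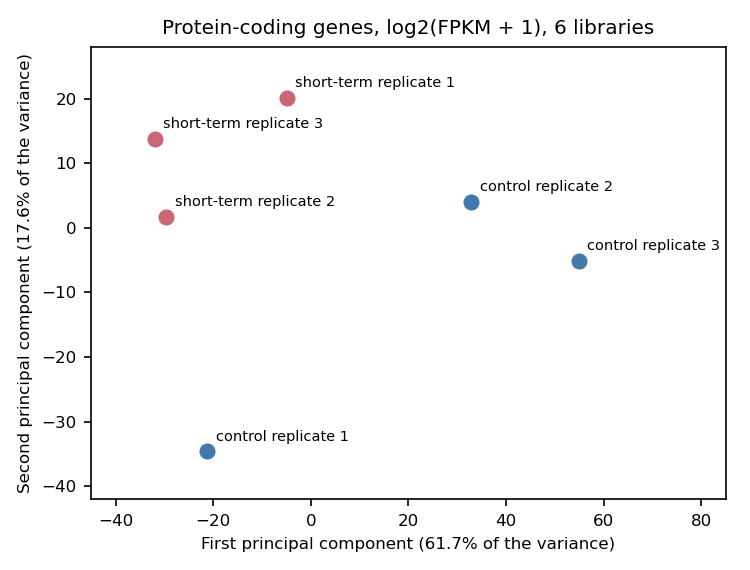
Position of the 6 libraries on the first and second principal components of log2(FPKM + 1) over protein-coding genes, with the share of variance on each axis (blue, control; red, short-term). Control replicates 2 and 3 lie at 32.9 and 54.8 on the first axis, whereas control replicate 1 lies at -21.2, among the short-term libraries, and at the lower end of the second axis.

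With all libraries, 12 genes rose (0.0851% of those tested) and 4 fell (0.0284%) at an adjusted p under 0.05 (limma on log2(FPKM + 1), Benjamini-Hochberg). At an unadjusted p under 0.05, 2188 genes were higher (15.5%) and 1034 lower (7.33%). Every short-term library lay above every control library in 2988 genes (21.2%) and below in 1431 (10.1%), and 3 libraries against 3 cannot give an exact permutation p under 0.1. The median gene was 0.11 higher in short-term leaves on the log2 scale, and the changes below are given relative to that median (relative log2 change). Rescaling the libraries by median ratios moved this median to 0.01, and then 1906 genes (13.5%) lay entirely above and 2127 (15.1%) entirely below, with 22 genes past the threshold upward and 25 downward. Without control replicate 1, 389 genes passed upward (2.76%) and 195 downward (1.38%). Of these, 278 and 188 were also separated when control replicate 1 was put back, and they included each of the 12 and 4 genes. Leaving out any other single library of the 2 groups left 0 genes past the threshold upward and 0 to 2 downward (limma).

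The genes that passed with all libraries were mostly moderate in level, and 14 of the 16 have no product name in the deposited annotation. Of the 4396 tested genes with a product name, 1 rose and 1 fell (0.0227% each). Sulfite reductase 1 (LOC104889997), which uses ferredoxin to reduce sulfite to sulfide for cysteine synthesis, stood at 56.1, 52.9 and 53.9 FPKM in control and at 27.1, 27.0 and 31.8 FPKM in short-term leaves. Its groups were far apart and the mean fell 1.90-fold (relative log2 change -1.02 ± 0.11, SE; adjusted p = 0.037). Sorcin (LOC104903814), whose name is that of a calcium-binding protein, measured 4.65, 5.28 and 3.79 FPKM in control and 12.9, 9.30 and 12.4 FPKM in short-term leaves, and it rose 2.53-fold (relative log2 change 1.06 ± 0.16; adjusted p = 0.046). Control replicate 1 lay close to the other controls in both genes.

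LOC104906740 carries no product name in the files and is called a peroxidase by the study, an enzyme that spends hydrogen peroxide. It was at 13.04, 11.6 and 8.99 FPKM in control and at 27.1, 25.5 and 27.3 FPKM in short-term leaves. It rose 2.37-fold (relative log2 change 1.08 ± 0.13; adjusted p = 0.035). Among the genes without a product name, LOC104904914 fell 3.46-fold with the smallest adjusted p of all genes (10.4, 12.3 and 9.91 FPKM against 2.65, 3.59 and 3.20; adjusted p = 0.019). LOC104904708 fell 3.93-fold, from 164, 158 and 295 FPKM to 53.6, 59.8 and 43.7 FPKM (adjusted p = 0.037). LOC104900138 had the greatest rise among these 12 genes in the ratio of means, 5.18-fold, from 2.61, 1.497 and 1.05 FPKM to 7.87, 8.29 and 10.6 FPKM (adjusted p = 0.035). LOC104895671 fell 4.07-fold, from 3.801, 3.20 and 3.63 FPKM to 0.761, 0.757 and 1.09 FPKM (adjusted p = 0.037). The other 9 genes that rose, none with a product name, did so by 1.84- to 3.27-fold, the last being LOC104896328. The controls of all 16 genes stayed clear of the short-term libraries.

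Named pathways were followed in 40 gene lists built from product names. No member of any list rose at the adjusted threshold, and sulfite reductase 1 was the only one that fell. The lists are therefore described by how many members were separated in all 6 libraries, to be read against the 21.2% above and 10.1% below of all genes, and by the median relative log2 change, which is 0 over all genes by construction. They include families of close copies (antenna proteins, Rubisco small subunits, carbonic anhydrases), in which the assignment of reads between copies is uncertain.

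**Figure D2:**
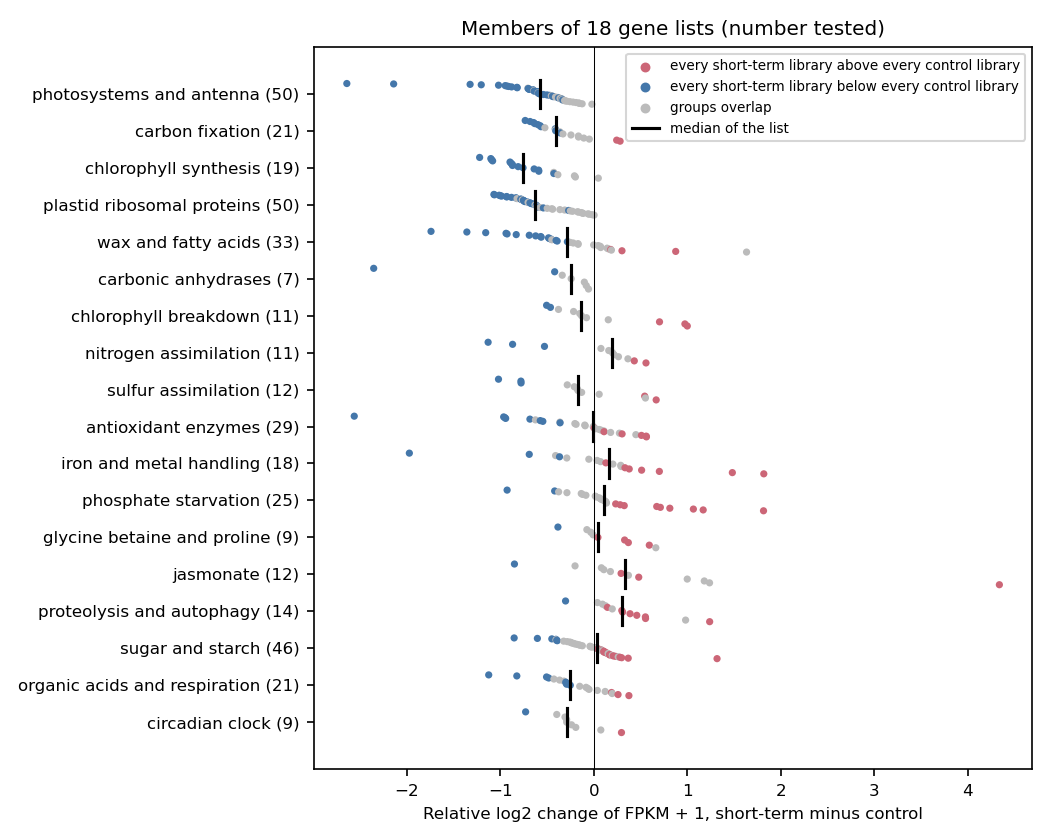
Relative log2 change of FPKM + 1 (short-term minus control, less the median of all genes) of each tested member of 18 gene lists. Points are genes, red or blue where the 3 short-term libraries lie entirely above or below the 3 controls and grey where they overlap, and black bars are list medians: the photosystem list lies wholly below 0 with a median of -0.58, while the jasmonate list reaches 4.34.

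Of 50 tested members of the photosystem and antenna list 31 lay entirely below the controls, none above, and 19 overlapped. Relative to the median gene all 50 had a change below 0, with a median of -0.58 (range -2.64 to -0.02). None passed the adjusted threshold with all libraries, and 2 did without control replicate 1. The widest change belonged to an antenna gene, the chlorophyll a-b binding protein LOC104883662, with 581, 782 and 1525 FPKM in control and 352, 143 and 70.0 FPKM in short-term leaves (relative log2 change -2.64 ± 0.56; adjusted p = 0.072, and 0.047 without control replicate 1). A second chlorophyll a-b binding protein, LOC109133718, measured 919, 1041 and 2302 FPKM against 491, 335 and 196 FPKM. In both antenna genes the control group spanned more than a doubling and yet did not reach the short-term values.

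The reaction centre and electron carrier genes named here moved less than these antenna genes, which included the widest change of the list. Antenna genes as a group were not compared with the others. Photosystem I subunit N (LOC104895406) was at 1314, 1372 and 1680 FPKM in control and 948, 978 and 752 FPKM in short-term leaves (adjusted p = 0.077). Plastocyanin (LOC104883872), the copper protein that carries electrons to photosystem I, was at 1214, 1529 and 1681 against 877, 1078 and 672 FPKM. Ferredoxin--NADP reductase (LOC104905186), which makes NADPH, was at 41.2, 27.4 and 37.5 against 17.8, 22.3 and 17.7 FPKM (adjusted p = 0.070). All 3 genes were separated in every library. Photosystem I subunit O (LOC104907718) was at 1829, 1878 and 2518 against 1710, 1647 and 1134 FPKM, a change with a wide spread (adjusted p = 0.22).

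Chlorophyll synthesis followed the same direction with a larger median. Of 19 tested members 14 lay entirely below the controls and none above, the median relative log2 change was -0.76, and 10 passed downward without control replicate 1. Glutamyl-tRNA reductase 1 (LOC104905095), the committed and regulated step of tetrapyrrole synthesis, stood at 125, 153 and 153 FPKM in control and 61.2, 71.8 and 65.0 FPKM in short-term leaves. Its mean was 2.18 times lower (relative log2 change -1.22 ± 0.17; adjusted p = 0.059, and 0.032 without control replicate 1).

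Genes named here from the magnesium branch, which is specific to chlorophyll, were lower too. Magnesium-chelatase subunit ChlH (LOC104889354) was at 373, 425 and 554 against 265, 202 and 213 FPKM. Subunit ChlI (LOC104900584) was at 87.4, 106 and 136 against 62.4, 69.8 and 55.8 FPKM. The mean of magnesium protoporphyrin IX methyltransferase (LOC104908971) was 1.72 times lower, and that of the oxidative cyclase LOC104889639 1.97 times lower. Outside that branch, geranylgeranyl diphosphate reductase (LOC104894042), which supplies the phytol tail, had a mean 1.70 times lower. These 5 genes had adjusted p of 0.059 to 0.089 with all libraries and of 0.033 to 0.044 without control replicate 1.

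The breakdown of chlorophyll was split between genes. Of 11 tested members 3 lay entirely above and 2 entirely below the controls. Pheophytinase LOC104907441, which removes the phytol tail from pheophytin, was at 33.3, 30.6 and 21.5 FPKM in control and 55.5, 56.3 and 75.4 FPKM in short-term leaves (relative log2 change 1.00 ± 0.21; adjusted p = 0.061). Pheophorbide a oxygenase (LOC104902984), which opens the ring, was at 23.5, 17.2 and 14.9 against 31.1, 34.1 and 33.4 FPKM (adjusted p = 0.063). STAY-GREEN 1 (LOC104892367), the magnesium-removing factor of senescing leaves, was at 19.1, 12.7 and 7.15 against 20.4, 25.5 and 37.05 FPKM (adjusted p = 0.12), with control replicate 1 just under the lowest short-term library. These were the 3 genes that passed upward without control replicate 1 (adjusted p = 0.036, 0.021 and 0.049). The paralogue pheophytinase LOC104895050 went the other way, with 42.6, 51.6 and 46.2 against 35.1, 34.7 and 39.6 FPKM, as did STAY-GREEN LIKE (LOC104894688), with 47.9, 56.6 and 61.8 against 42.5, 42.3 and 40.7 FPKM.

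Carbon fixation was lower to a smaller degree. Of 21 tested genes 10 lay entirely below and 2 entirely above the controls, with a median of -0.41, and 2 passed downward without control replicate 1. The Rubisco small chain LOC104886961 was at 4569, 5210.4 and 6151 FPKM in control and 3853, 3535 and 2963 FPKM in short-term leaves. Transketolase (LOC104888662), an enzyme of the regeneration of the CO2 acceptor, was at 395, 518 and 568 against 333, 366 and 292 FPKM (adjusted p = 0.093, and 0.036 without control replicate 1). Ribulose-phosphate 3-epimerase occurred as a pair of opposite genes: the abundant LOC104894019 was at 488, 527 and 570 against 400.2, 407 and 352 FPKM, and the low LOC104887275 at 16.2, 15.6 and 14.1 against 19.6, 19.4 and 20.6 FPKM.

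Carbonic anhydrases interconvert CO2 and bicarbonate, the ion supplied by the treatment. Of the 7 tested genes 2 lay entirely below the controls. The highest of them, LOC104902037, was at 1612, 3089 and 2947 FPKM in control and 797, 449.9 and 386 FPKM in short-term leaves, with a mean 4.68 times lower (relative log2 change -2.35 ± 0.38; adjusted p = 0.059, and 0.030 without control replicate 1). Carbonic anhydrase 2 (LOC104897387) was at 297, 357 and 344 against 264, 267 and 274 FPKM. The other 5 genes, of the alpha, beta and gamma families, overlapped between the groups, with relative log2 changes of -0.34 to -0.06.

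Genes for the ribosome of the plastid, which translates the photosystem core proteins, were lower as a group: 27 of 50 lay entirely below the controls, none above, with a median of -0.63, and 12 passed downward without control replicate 1. 30S ribosomal protein 2 (LOC104889787) was at 54.0, 73.2 and 83.5 against 33.3, 42.3 and 31.3 FPKM (adjusted p = 0.071). Of the 11 ribosomal proteins of the cytosol 3 lay entirely below and 2 entirely above.

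The list of wax and fatty acid genes joins the synthesis and desaturation of fatty acids in the plastid with their activation, elongation and transfer elsewhere in the cell. It had 16 of 33 members entirely below and 3 entirely above the controls, with a median of -0.28. Acyl carrier protein 1 (LOC104893901), the carrier of the growing chain, was at 116, 155 and 252 FPKM in control and 50.4, 72.1 and 40.7 FPKM in short-term leaves (relative log2 change -1.74 ± 0.32; adjusted p = 0.063). The 2 desaturases of membrane lipids with the smallest p in the list had means 1.79 and 2.09 times lower. The omega-6 desaturase LOC104900797 was at 92.8, 105 and 130.2 against 62.6, 68.4 and 52.2 FPKM, and the omega-3 desaturase LOC104903256 at 94.1, 109.6 and 134 against 50.5, 61.2 and 49.7 FPKM. Outside this list, the palmitoyl-monogalactosyldiacylglycerol delta-7 desaturase (LOC104904554), which acts on a galactolipid of the thylakoid, had a mean 4.28 times lower, at 24.2, 26.7 and 46.6 against 10.01, 6.99 and 5.80 FPKM (adjusted p = 0.057). In the opposite direction, the O-acyltransferase WSD1 (LOC104904993), named after an enzyme of wax ester synthesis, was at 23.0, 16.5 and 13.1 against 43.0, 42.9 and 45.2 FPKM (adjusted p = 0.059, and 0.021 without control replicate 1).

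Nitrogen assimilation had no common direction: 8 of 11 tested genes had a relative log2 change above 0, with a median of 0.20. By contrast, 3 genes, for nitrite reductase, glutamine synthetase and glutamate synthase, lay below the controls. Ferredoxin--nitrite reductase (LOC104891570), which turns nitrite into ammonium, was at 119.8, 119 and 141 FPKM in control and 63.8, 64.0 and 57.9 FPKM in short-term leaves (relative log2 change -1.13 ± 0.15; adjusted p = 0.057, and 0.033 without control replicate 1). The leaf isozyme of glutamine synthetase (LOC104883503), which fixes that ammonium, was at 822, 897 and 1087 against 564, 615 and 480.0 FPKM (adjusted p = 0.061). Ferredoxin-dependent glutamate synthase (LOC104889481) was at 269, 383 and 342 against 247, 250.1 and 241 FPKM. The donor itself, ferredoxin-1 (LOC104903711), was at 2346, 2684 and 2616 against 1602, 1929 and 1722 FPKM (adjusted p = 0.12). Of these 4 genes, glutamine synthetase does not itself use ferredoxin, and all were separated in the 6 libraries. Over the whole nitrogen list, 3 of 11 genes lay entirely below and 2 entirely above, the latter being the transporters LOC104892101 and LOC104908592 of the NRT1/PTR family.

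Of the sulfur assimilation genes sulfite reductase 1 alone passed the threshold, and the others are given by their values. ATP sulfurylase 1 (LOC104884601), which activates sulfate, was at 40.2, 36.7 and 31.0 against 57.7, 54.4 and 59.3 FPKM (adjusted p = 0.063), and adenylyl-sulfate kinase (LOC104894954), which diverts activated sulfate to sulfation, at 11.04, 10.96 and 7.02 against 14.9, 15.6 and 21.2 FPKM. Another reductive step, 5'-adenylylsulfate reductase 1 (LOC104900978), lay below the controls, at 547, 517 and 403 against 317, 251 and 358 FPKM. Cysteine synthase LOC104889016 also lay below them, at 138, 152 and 203 against 103, 112 and 91.5 FPKM. Of the 12 genes of this list, 3 lay entirely below and 2 entirely above (the latter 16.7%, against 21.2% of all genes), with a median of -0.17.

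Metal transport was among the lists with separated genes on both sides, with 7 of 18 entirely above, 3 entirely below and a median of 0.17. The metal pump HMA1 (LOC104894889), a P-type ATPase known from Arabidopsis in the chloroplast envelope, was at 17.9, 12.3 and 10.02 FPKM in control and 38.3, 53.9 and 34.5 FPKM in short-term leaves, with a mean 3.15 times higher (relative log2 change 1.48 ± 0.24; adjusted p = 0.057, and 0.021 without control replicate 1). Zinc transporter 4 (LOC104884321) was at 41.4, 22.03 and 13.8 against 82.4, 100.99 and 93.7 FPKM, 3.59 times higher (adjusted p = 0.059, and 0.014 without control replicate 1). Ferric reduction oxidase 8 (LOC104894346), a reductase of ferric iron, was at 5.06, 4.53 and 4.50 against 9.46, 7.79 and 9.93 FPKM. Ferritin-3 (LOC104905965), an iron store of the plastid, ran the other way at 64.2, 44.1 and 85.5 against 13.6, 15.0 and 21.9 FPKM (relative log2 change -1.97 ± 0.42; adjusted p = 0.072). In each of these 4 genes control replicate 1 lay on the control side.

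Antioxidant genes had 8 of 29 members entirely below and 6 entirely above the controls, the latter near the 21.2% above among all genes. Their median of 0.00 changed sign between alternatives. After median-ratio scaling 8 lay entirely below and 3 entirely above (10.3%, against 13.5% of all genes). The lower genes included the copper-zinc enzyme of superoxide removal (LOC104902979), at 114, 208 and 257 FPKM in control and 51.7, 26.3 and 25.6 FPKM in short-term leaves, a mean 5.59 times lower (relative log2 change -2.56 ± 0.49; adjusted p = 0.066). The copper chaperone that loads it (LOC104892389) was at 13.6, 19.0 and 16.3 against 10.3, 8.21 and 7.51 FPKM, and the 2-Cys peroxiredoxin BAS1 (LOC104898261), a chloroplast peroxidase, at 487, 595 and 744 against 343, 385 and 278 FPKM. These 3 genes passed downward without control replicate 1 (adjusted p = 0.036, 0.036 and 0.034). Among the higher genes, the zeta-class glutathione S-transferase LOC104905406 was at 5.72, 5.70 and 5.49 against 10.2, 8.98 and 9.72 FPKM (adjusted p = 0.059), and L-ascorbate peroxidase 3 (LOC104895170) at 48.0, 62.5 and 45.5 against 87.7, 68.7 and 94.1 FPKM. Each of the 4 class III peroxidases with a product name overlapped between the groups.

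**Figure D3:**
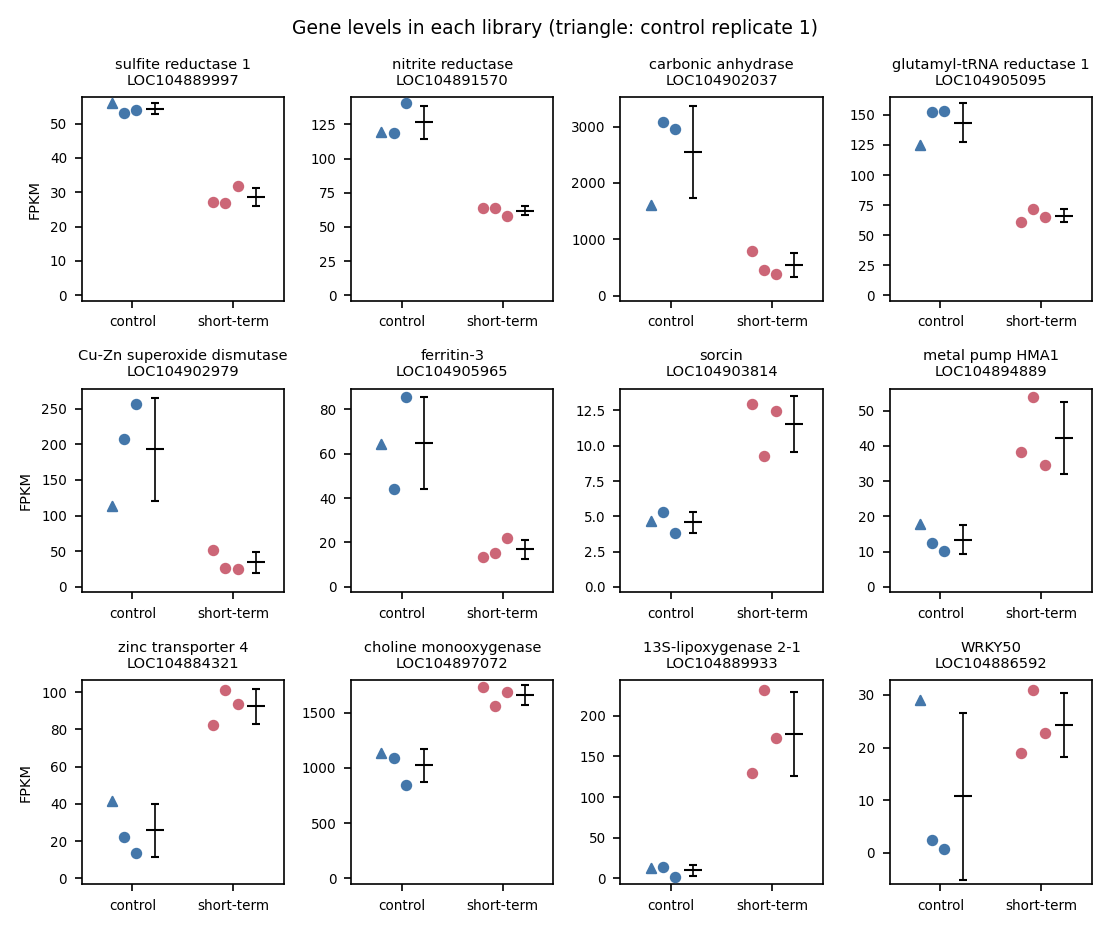
FPKM of 12 named genes in each library (blue, control; red, short-term; triangle, control replicate 1), with the mean and SD beside the points. Sulfite reductase 1 stays between 52.9 and 56.1 in control and between 27.0 and 31.8 in short-term leaves, whereas in WRKY50 the triangle at 29.0 lies among the short-term libraries.

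Genes of the phosphate starvation response were higher in 9 of 25 cases with all libraries separated and lower in 2, with a median of 0.11. Inorganic pyrophosphatase 2 (LOC104903667) was at 4.01, 4.06 and 2.82 FPKM in control and 7.27, 14.1 and 10.2 FPKM in short-term leaves (adjusted p = 0.059). GDPD1 (LOC104895222), named after an enzyme that splits glycerophosphodiesters, was at 2.92, 1.29 and 0.965 against 6.96, 17.999 and 5.47 FPKM (relative log2 change 1.82; adjusted p = 0.085). The phosphate exporter homologue PHO1 homolog 1 (LOC104896336) was at 2.66, 0.895 and 0.686 against 3.997, 4.96 and 3.57 FPKM (adjusted p = 0.076, and 0.015 without control replicate 1). Phosphate transporter 2-1 (LOC104897289), of a family that feeds the chloroplast, was lower at 45.3, 55.9 and 54.9 against 27.98, 30.2 and 29.0 FPKM (adjusted p = 0.059). In PHO1 homolog 1 and GDPD1 control replicate 1 was the highest control.

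Glycine betaine is made from choline by choline monooxygenase and betaine aldehyde dehydrogenase. Choline monooxygenase LOC104897072 was already abundant in control leaves, at 1131, 1088 and 847 FPKM, and stood at 1730, 1559 and 1688 FPKM in short-term leaves, a mean 1.62 times higher (relative log2 change 0.59 ± 0.15; adjusted p = 0.068, and 0.044 without control replicate 1). The second copy, LOC104884941, was at 10.6, 8.65 and 10.1 against 11.5, 15.1 and 14.5 FPKM, and betaine aldehyde dehydrogenase LOC104894203 at 29.4, 25.0 and 21.1 against 34.0, 36.4 and 35.5 FPKM (adjusted p = 0.11). Of the 4 tested betaine aldehyde dehydrogenases 2 overlapped between the groups. On the proline side, delta-1-pyrroline-5-carboxylate synthase (LOC104904817) was at 25.4, 26.6 and 23.9 against 20.7, 20.8 and 20.9 FPKM (relative log2 change -0.38; adjusted p = 0.27). Over the list of 9 genes, 4 lay entirely above and 1 entirely below, and 2 and 1 after median-ratio scaling.

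Ion transport genes with a product name were seldom separated. Of 33 sodium, potassium and anion transporters 5 lay entirely above and 3 entirely below the controls, near or under the shares of all genes, and the 3 proton pump genes overlapped. After median-ratio scaling these became 3 above and 4 below of the 33 transporters, and 2 of the 3 proton pump genes lay entirely below. K(+) efflux antiporter 3 (LOC104904796) was at 17.5, 25.0 and 23.4 against 15.5, 15.1 and 15.3 FPKM (adjusted p = 0.095, and 0.032 without control replicate 1). Among genes that carry no product name in the files, LOC104892091 and LOC104906281, which the study describes as ion transporters, had larger differences. LOC104892091 was at 38.5, 12.6 and 7.07 against 76.9, 99.9 and 85.01 FPKM (adjusted p = 0.063, and 0.0034 without control replicate 1). LOC104906281 was at 5.13, 1.62 and 0.978 against 7.01, 11.8 and 12.99 FPKM. In both, control replicate 1 was the control nearest to the short-term leaves.

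Jasmonate, a hormone of wounding and defence, begins with 13-lipoxygenases in the plastid. The linoleate 13S-lipoxygenase 2-1 LOC104889933 had the widest separation of the list, at 13.2, 14.2 and 1.33 FPKM in control and 129, 232 and 173 FPKM in short-term leaves, a mean 18.6 times higher (relative log2 change 4.34 ± 0.85; adjusted p = 0.062, and 0.040 without control replicate 1). Its neighbour in name, LOC104889932, was at 180.3, 28.9 and 14.3 against 77.5, 143 and 122 FPKM, so that control replicate 1 exceeded every short-term library (adjusted p = 0.34, and 0.036 without that library). Lipoxygenase 6 (LOC104897618) was at 38.9, 42.0 and 33.7 against 55.5, 57.0 and 61.5 FPKM. Over the 12 tested genes, 3 lay entirely above and 1 entirely below, with a median of 0.33.

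WRKY factors showed how far control replicate 1 could decide a value. WRKY50 (LOC104886592), of a family of defence regulators, was at 29.0, 2.33 and 0.788 FPKM in control and 18.9, 31.0 and 22.9 FPKM in short-term leaves (adjusted p = 0.23, and 0.036 without control replicate 1). Of the 8 tested WRKY factors 1 lay entirely above the controls. Abscisic acid genes were separated in 4 of 13 cases, 3 above and 1 below. The synthesis gene NCED1 (LOC104907355) overlapped between the groups, at 22.7, 19.9 and 4.31 against 12.3, 68.5 and 35.3 FPKM, whereas the abscisic-aldehyde oxidase LOC104899897 was at 7.45, 7.62 and 5.64 against 9.60, 9.73 and 11.8 FPKM (adjusted p = 0.083). Gibberellin-regulated protein 1 (LOC104905105) was at 7.38, 4.12 and 4.18 against 13.7, 9.21 and 13.2 FPKM (adjusted p = 0.064). Counting it, 5 of the 11 genes of the gibberellin, cytokinin and brassinosteroid list lay entirely above and 2 entirely below, with a median of 0.19. The cytokinin response regulators were on both sides: ARR8 (LOC104889461) was at 9.25, 7.55 and 11.4 against 5.13, 6.10 and 5.58 FPKM, ARR2 (LOC104887855) at 17.1, 14.6 and 12.8 against 20.8, 17.8 and 21.97 FPKM, and ARR5 (LOC104898023) at 12.8, 9.34 and 8.64 against 14.9, 17.2 and 13.8 FPKM. ORR24 (LOC104883152) was at 8.67, 9.35 and 7.75 against 11.3, 10.6 and 10.9 FPKM.

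Many protein turnover genes lay above the controls. Of 14 tested genes of proteolysis and autophagy 8 lay entirely above the controls and 1 entirely below, with a median of 0.30. An aspartic proteinase-like gene (LOC104890627) was at 48.4, 55.8 and 32.4 FPKM in control and 102, 100.2 and 149 FPKM in short-term leaves (relative log2 change 1.24 ± 0.23; adjusted p = 0.059). Autophagy, the delivery of cytoplasm to the vacuole, was represented by autophagy-related protein 8C (LOC104900987), which coats the autophagosome, at 16.5, 15.8 and 11.8 against 21.9, 21.2 and 28.6 FPKM (adjusted p = 0.078). Autophagy-related protein 3 (LOC104888747), which attaches it to lipid, was at 13.98, 14.4 and 12.03 against 20.1, 16.2 and 22.4 FPKM. After median-ratio scaling 7 of the 14 genes were still entirely above.

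Sugar and starch genes had 16 of 46 members entirely above and 6 entirely below the controls, which became 6 and 7 after median-ratio scaling, and their median of 0.03 changed sign between alternatives. Isoamylase 3 (LOC104891740), a debranching enzyme of starch breakdown, was at 3.27, 4.33 and 2.63 against 9.89, 9.82 and 12.8 FPKM (adjusted p = 0.063). Trehalose-phosphate phosphatase A (LOC104906608) was at 13.6, 12.95 and 13.9 against 7.63, 7.84 and 7.58 FPKM, a change larger than the spread of either group (relative log2 change -0.85 ± 0.12; adjusted p = 0.059). Glucose-6-phosphate 1-dehydrogenase LOC104897526, the entry to the oxidative pentose phosphate pathway, was at 43.9, 46.9 and 58.7 against 24.9, 29.6 and 24.5 FPKM (adjusted p = 0.059). Organic acid genes had 8 of 21 entirely below and 3 entirely above, including dicarboxylate transporter 1 (LOC104889984) of the plastid, at 98.5, 111 and 158 against 64.6, 63.6 and 50.1 FPKM.

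The larger regulatory lists had smaller shares above the controls than the photosynthetic lists had below. Among 55 heat stress factors and chaperones 11 lay entirely above and 6 entirely below, among 87 receptor-like kinases 12 and 8, among 33 calcium signalling genes 7 and 1, and among 35 pathogenesis-related genes 2 and 6. After median-ratio scaling these pairs became 8 and 7, 5 and 11, 2 and 3, and 2 and 6. Of 5 MYB factors 1 lay entirely above and 2 entirely below. In the circadian clock list, LHY (LOC104901408), a morning gene, was at 184, 231 and 181 FPKM in control and 133, 118 and 136 FPKM in short-term leaves (adjusted p = 0.11), and 7 of the 9 clock genes overlapped.

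Without control replicate 1, the lists described above and not yet given that way had these genes past the threshold. The counts are to be read against the list sizes given above. Of all genes, 2.76% passed upward and 1.38% downward without that library. The wax and fatty acid list had 1 upward and 5 downward, the phosphate list 3 and 1, and the metal list 2 and 1. The nitrogen and sulfur lists each had 1 upward and 2 downward, the antioxidant list 1 and 3, and the organic acid list 0 and 2. The jasmonate list had 3 upward and pathogenesis-related proteins 2. A single gene passed upward in each of the betaine and proline, WRKY, proteolysis and gibberellin lists, and a single gene downward in the sugar and starch list. Heat stress factors, receptor-like kinases and ion transporters (55, 87 and 33 tested genes) had 1 in each direction, not far from those shares. The abscisic acid, calcium, clock, MYB, proton pump and cytosolic ribosome lists had 0.

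Of the described genes with the smallest p, some stood in no list above. The acylpyruvase FAHD1 (LOC104908658), named after an enzyme that splits acylpyruvates, was at 75.5, 82.6 and 111 FPKM in control and 40.2, 42.5 and 33.1 FPKM in short-term leaves (relative log2 change -1.30 ± 0.17; adjusted p = 0.057, and 0.027 without control replicate 1). The psbP domain-containing protein 7 (LOC104890818) was at 34.1, 41.5 and 39.6 against 21.02, 19.1 and 20.5 FPKM (adjusted p = 0.057). The transcription factor bHLH67 (LOC104902402) had a mean 3.03 times lower, at 5.13, 6.33 and 5.84 against 2.09, 1.78 and 1.83 FPKM (adjusted p = 0.059). Higher in every library was the probable E3 ubiquitin-protein ligase HERC4 (LOC104897229), at 9.08, 9.30 and 6.40 against 16.4, 14.97 and 17.02 FPKM (adjusted p = 0.059). LOC104892086 and LOC104890494, whose product names are cut short in the annotation, were at 17.4, 17.9 and 21.1 against 10.8, 8.03 and 11.1 FPKM and at 20.5, 19.8 and 19.1 against 34.2, 28.3 and 33.1 FPKM. The groups of these 6 genes did not overlap.

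Long non-coding RNAs gave about as many rises as falls: 6 rose (0.367%) and 6 fell (0.367%) of 1634, while 123 (7.53%) were higher and 136 (8.32%) lower at an unadjusted p under 0.05 and 187 (11.4%) lay entirely above and 206 (12.6%) entirely below the controls. Without control replicate 1, 11 passed upward (0.673%) and 8 downward (0.49%). Leaving out any other single library left 0 to 6 of either direction. By class, 5 intergenic lncRNAs rose (0.355%), 6 fell (0.426%) and 1 antisense lncRNA rose (0.442%). Primers for quantitative PCR were designed in the study for LNC_008366, LNC_000365, LNC_007731 and the metal pump gene HMA1. In the study's own quantitative PCR, LNC_007731 showed almost no short-term fall, far less than in its sequencing. LNC_008366 and LNC_000365 changed there in the same direction and to a similar degree as in its sequencing, and HMA1 was reported as higher. The primers are shown because they mark the stretches by which these RNAs can be detected again, and are written 5′ to 3′ in lower case.
LNC_008366 forward: tcacagttgtagagttgaatctcgt
LNC_008366 reverse: agttgaacagaacgcaccct
LNC_000365 forward: ttcactccatagtctgatagatcgt
LNC_000365 reverse: aatgggactctatctttattctcgt
LNC_007731 forward: gaacgaatggacaaggagtga
LNC_007731 reverse: aaagagttcggacaattgggt
LOC104894889 forward: gtaccgtaaactccgtcgcat
LOC104894889 reverse: ccttcgcaaatccaaacactt

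The lncRNAs that rose were low or listed at 0 in control leaves. LNC_008123, LNC_008366, LNC_005395 and LNC_005750 had control means of 0, 0.076, 0 and 0.31 FPKM. They passed the filter of 0.5 FPKM only through their short-term level. Their low control level is thus part of how they were kept and is no separate evidence of a rise. LNC_004237, an intergenic RNA of 2 exons and 1400 bases, rose 4.88-fold, from 6.48, 4.44 and 3.67 FPKM to 21.4, 27.7 and 21.97 FPKM (relative log2 change 2.07 ± 0.24; adjusted p = 0.011). LNC_008123 (306 bases in 3 exons) was listed at 0 in the 3 controls and at 3.28, 4.55 and 4.30 FPKM in short-term leaves (adjusted p = 0.011), so no fold is given. LNC_008366 (481 bases, 1 exon) was listed at 0.229, 0 and 0 FPKM in control and rose to 5.15, 8.16 and 2.40 FPKM (adjusted p = 0.027). Both of these short RNAs came from unplaced sequences of the assembly.

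LNC_005395 (898 bases, 2 exons) was listed at 0 in the 3 controls and at 25.6, 6.55 and 25.8 FPKM in short-term leaves (adjusted p = 0.045, and 0.060 without control replicate 1). LNC_006017 (3314 bases, 2 exons) rose from 3.81, 0.535 and 0.174 FPKM to 8.98, 13.6 and 10.99 FPKM (adjusted p = 0.0497, and 0.0017 without control replicate 1). The antisense LNC_005750 (2815 bases, 2 exons) overlapped the gene of probable plastidic glucose transporter 3 (LOC104904700) on the other strand. It was at 0.929, 0 and 0 FPKM in control and 2.37, 3.45 and 3.18 FPKM in short-term leaves (adjusted p = 0.045), while the overlapped gene was at 2.70, 3.20 and 2.38 against 3.96, 3.58 and 3.35 FPKM (adjusted p = 0.28). The libraries kept strand, so the signals of this pair were counted apart.

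**Figure D4:**
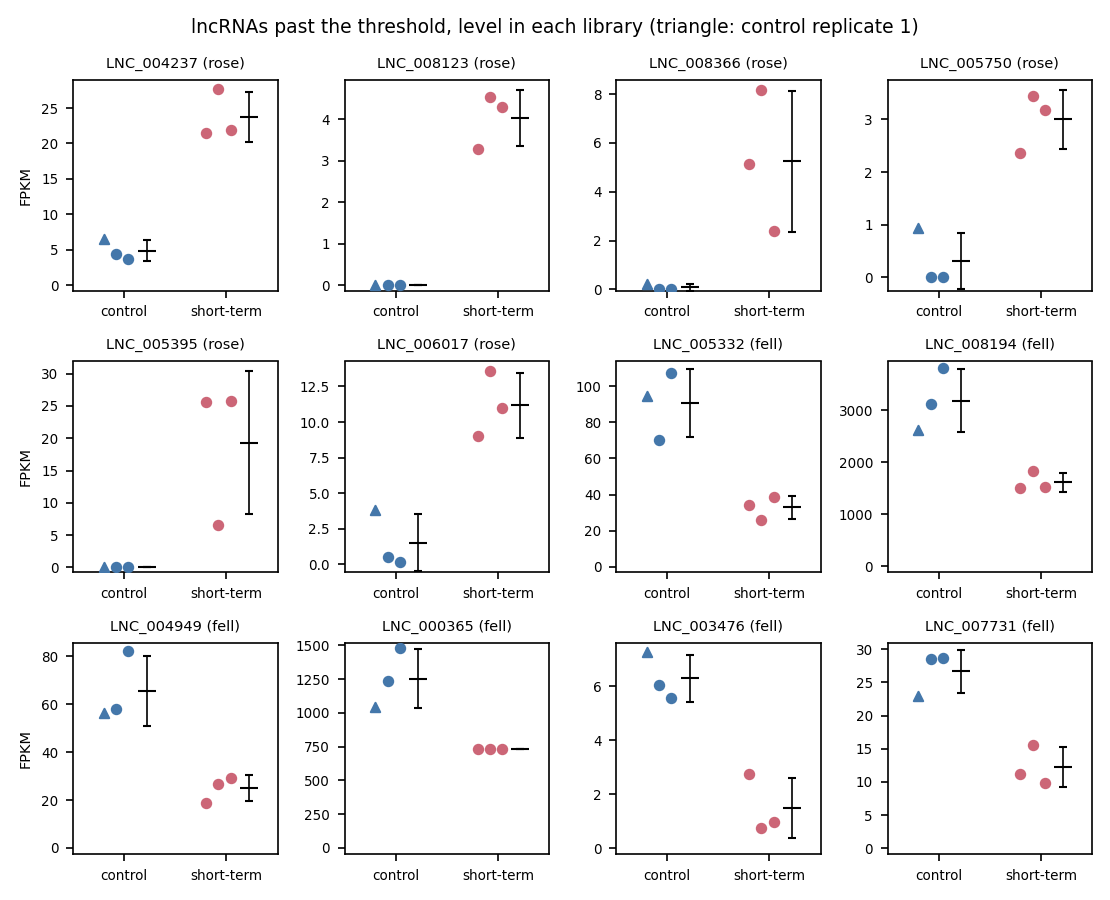
FPKM of the 12 lncRNAs past the threshold in each library (blue, control; red, short-term; triangle, control replicate 1), with the mean and SD beside the points. LNC_008123 and LNC_005395 are at 0 in all 3 controls, and LNC_000365 lies between 732 and 736 in the short-term libraries.

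The lncRNAs that fell included far more abundant ones. LNC_008194, a single exon of 384 bases on an unplaced sequence, fell 1.97-fold, from 2610.0, 3119.8 and 3816 FPKM to 1508, 1828 and 1519.6 FPKM (relative log2 change -0.99 ± 0.16; adjusted p = 0.045). LNC_000365 (287 bases, 1 exon) fell 1.71-fold, from 1044, 1238 and 1480.3 FPKM to 734, 736 and 732 FPKM (adjusted p = 0.045). The 3 short-term libraries of this RNA lay within an SD of 1.96 FPKM (n = 3). LNC_005332 (700 bases, 3 exons) fell 2.76-fold, from 94.6, 70.2 and 107 FPKM to 34.1, 26.1 and 38.4 FPKM (adjusted p = 0.033).

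LNC_004949 (516 bases, 2 exons) fell 2.63-fold, from 56.3, 58.2 and 82.4 FPKM to 18.8, 26.8 and 29.3 FPKM (adjusted p = 0.045). LNC_007731 (281 bases, 1 exon) fell 2.18-fold, from 23.0, 28.5 and 28.6 FPKM to 11.2, 15.6 and 9.79 FPKM (adjusted p = 0.0497). The study's quantitative PCR found almost no short-term fall of this RNA. LNC_003476 (288 bases, 1 exon) fell 4.23-fold, from 7.27, 6.06 and 5.59 FPKM to 2.77, 0.735 and 0.968 FPKM (adjusted p = 0.0497, and 0.065 without control replicate 1). None of these 6 RNAs overlapped between the groups. Of the 226 antisense lncRNAs no other passed. The nearest was LNC_001194, at 0.772, 0.446 and 0.438 FPKM in control and 1.58, 2.89 and 2.23 FPKM in short-term leaves (adjusted p = 0.070). The nearest on the lower side was LNC_004841, at 2.46, 4.78 and 3.41 FPKM in control and 1.58, 0 and 0 FPKM in short-term leaves (adjusted p = 0.078).

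No TUCP passed the threshold with all libraries (limma), in either direction (0% each). At an unadjusted p under 0.05, 54 were higher (7.14%) and 83 lower (11%), 77 lay entirely above the controls (10.2%) and 105 entirely below (13.9%), and without control replicate 1, 5 passed upward (0.661%) and 28 downward (3.7%). TUCP_000306 was the clearest of the abundant ones, at 91.2, 74.1 and 58.6 FPKM in control and 242, 216 and 259 FPKM in short-term leaves (relative log2 change 1.69 ± 0.31; adjusted p = 0.12, and 0.047 without control replicate 1). TUCP_000683 was at 6.78, 8.97 and 13.4 against 2.64, 1.76 and 1.88 FPKM (adjusted p = 0.10). TUCP_001023 was at 212, 271 and 314 against 159.96, 164 and 149.6 FPKM, and TUCP_001271 at 9.66, 9.10 and 11.01 against 5.70, 5.15 and 4.03 FPKM. At low levels, TUCP_000712 was at 0.879, 1.488 and 0.906 against 0, 0.1815 and 0.101 FPKM, TUCP_000474 at 0.944, 0.594 and 0.406 against 1.85, 2.15 and 2.33 FPKM, and TUCP_000493 at 1.27, 0.694 and 0 against 4.46, 4.26 and 2.67 FPKM. TUCP_000712 passed the filter only through its control level. These 7 TUCPs were separated in all 6 libraries.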

How the data were processed

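RNA of sugar beet leaves was depleted of ribosomal RNA and made into strand-specific libraries. The authors aligned the reads with HISAT2 (run with a stranded setting) to a reference genome; its build is not named in the notes, labels or tables read here. The submitters' processing notes name StringTie 1.3.1, and the paper's methods name Cuffdiff for the FPKM. FPKM were deposited by the authors per transcript as one table, with annotation tables that name a product for 6515 of 24351 gene identifiers, cut at the first comma. The RefSeq table at hand holds no product names, so the deposited ones were used alone. The transcript FPKM were summed per gene over protein-coding transcripts, lncRNAs and TUCPs were kept as transcripts, and features with a mean over 0.5 FPKM in control or short-term leaves were tested. limma 3.58.1 in R 4.3.3 was fitted to log2(FPKM + 1) over all 9 libraries (a mean per group, variance trend), with Benjamini-Hochberg adjustment within genes, lncRNAs and TUCPs. A fold change on that scale understates the change of low genes; ratios of means are on the FPKM scale.

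Depth is not given as counts. In low single-exon lncRNAs, FPKM times length came in steps of a value per library (91.0% to 98.4% of values within 0.1 of a whole step), which corresponds to 5.01 to 6.58 mapped gigabases per library if the steps are covered bases. These are not read counts, so no count test was run. In simulated data, noise was independent and normal at the fitted spread of each feature, and no library stood apart. Changes were planted only in features whose control level exceeded 1 on the log2(FPKM + 1) scale. The procedure recovered 76 of 100 genes changed by 1 on the log2 scale and 93 of 100 changed by 2. It made 5 false calls among the unchanged of 14109 genes. For lncRNAs it recovered 71 and 89 of 100, with 7 false calls among the unchanged of 1634. These rates need not hold for the real libraries, in which control replicate 1 stood apart. Alternatives were other pseudocounts, filters, scalings, models and leaving out each library. Members and gene lists were chosen with earlier results of these data known. Named features were drawn from the 12 described genes in each direction with the smallest p (after those past the threshold), up to 4 members of each list, the 4 lncRNAs and TUCPs of smallest p per type and direction, and genes the study names, not all of which are printed; other genes were chosen after their values were seen. Product names are those of the deposited annotation unless credited to the study.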

Additional observations from a re-analysis of the deposited data

How the results depend on the processing

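Directions of the named features seldom changed, whereas their side of the threshold often did. Over up to 22 alternatives for each of 123 features, 2249 values kept direction and side. Another 193 kept direction and lost the threshold, and 242 kept direction and gained it. The 1 that changed sign was LOC104904913, with overlapping groups, at a relative log2 change of -0.13 that became 0.0058 with array weights. Several alternatives could not change a direction, because they altered only the spread or the p. These were the fit of the 2 groups alone, the fits without the trend or with a robust trend, the unmoderated test and the replicate block. Many features were also named for a small p in these same data, so the kept directions are no separate evidence. Of 12 genes that rose, 4 that fell and 12 lncRNAs past the threshold, the counts became 22, 25 and 4 with median-ratio scaling, 6, 3 and 42 without the filter on low values, 7, 6 and 16 at the same total FPKM, 29, 21 and 5 in a fit of the 2 groups alone, 1493, 732 and 19 with array weights, and 0, 0 and 5 in an unmoderated F-test. lncRNAs past the threshold numbered 5 with a pseudocount of 0.1, 21 over a mean of 1 FPKM, 4 at the same protein-coding FPKM, 4 without the variance trend and 19 with a robust trend. The cause of these moves was not tested. Leaving out 1 library gave 0 to 389 genes upward, 0 to 195 downward, 0 to 19 lncRNAs and 0 to 33 TUCPs, the upper ends all without control replicate 1. In the fit of the 2 groups alone without that library, chosen after seeing the data, 1144 genes rose, 462 fell, and 14 lncRNAs and 3 TUCPs passed. In alternatives also added then, genes entirely above the controls numbered 1906 with median-ratio scaling and 3331 to 5386 with 1 library left out, and those entirely below 1688 to 2153. Same-numbered control and short-term libraries deviated from their group means in opposite directions (correlations across genes of -0.54, -0.14 and -0.31). With so few libraries per group, such deviations cannot show whether same-numbered libraries were sampled or prepared together. A replicate block left 1 gene upward, 0 downward and 4 lncRNAs. List medians near 0 changed sign in 28 of 880 cases, whereas those of photosystems (-0.66 to -0.45), chlorophyll synthesis (-0.96 to -0.55), plastid ribosomal proteins (-0.80 to -0.48) and carbon fixation (-0.49 to -0.30) did not. FPKM without counts limit what can be said of low features.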

Other observations

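Enzymes that break down branched-chain amino acids, tyrosine and lysine were counted after their values were seen, from product names, and no test was made. Of 27 such genes 18 lay entirely above the controls, none entirely below and 9 overlapped, with a median relative log2 change of 0.32, against 21.2% above and 10.1% below among all genes. After median-ratio scaling, 13.5% of all genes lay entirely above, and these genes were not recounted. None passed the adjusted threshold with all libraries. Without control replicate 1, 6 passed upward, against 2.76% of all genes. Tyrosine aminotransferase (LOC104883287), the first step of tyrosine breakdown, was at 9.40, 9.001 and 7.27 FPKM in control and 18.6, 18.9 and 21.9 FPKM in short-term leaves (relative log2 change 1.01 ± 0.17; limma, adjusted p = 0.057). A second, low gene of that name, LOC104883286, overlapped between the groups, at 0.924, 0.569 and 0.286 against 0.434, 1.13 and 0.855 FPKM (limma, adjusted p = 0.64). The alpha subunit of 2-oxoisovalerate dehydrogenase (LOC104895418), which acts on the keto acids of leucine, isoleucine and valine, was at 5.46, 5.17 and 4.59 against 10.3, 11.4 and 12.9 FPKM (adjusted p = 0.059). D-2-hydroxyglutarate dehydrogenase (LOC104895090), a mitochondrial enzyme, was at 8.44, 7.91 and 6.51 against 12.4, 12.98 and 12.6 FPKM. Amino acid synthesis held examples of both directions: D-3-phosphoglycerate dehydrogenase 1 (LOC104901403), the entry to serine synthesis, was at 68.2, 51.03 and 29.4 against 159.6, 147 and 183 FPKM (adjusted p = 0.059), while bifunctional aspartokinase/homoserine dehydrogenase 2 (LOC104888130) was at 18.4, 19.1 and 22.9 against 11.5, 12.4 and 11.96 FPKM (adjusted p = 0.058).

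The gene with the smallest adjusted p, LOC104904914, lay 2388 bases from TUCP_000683 on the same strand, and both were lower in every short-term library. A further gene within 10 kb of that TUCP, LOC104904915, was at 2.02, 1.23 and 1.41 FPKM in control and 0.663, 0.341 and 0.618 FPKM in short-term leaves (adjusted p = 0.079). On the other side of the TUCP, at 4276 bases, LOC104904913 was at 2.01, 1.22 and 1.43 against 1.62, 1.09 and 1.85 FPKM, with overlapping groups (adjusted p = 0.97), and LOC104905075, at 5931 bases, was at 6.59, 7.097 and 5.32 against 4.77, 4.31 and 4.36 FPKM (adjusted p = 0.32). LOC104904917, on the opposite strand at 7571 bases, also overlapped between the groups. The pair was chosen after its values were seen, and whether they belong to one transcript was not tested.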
